A study of Mus musculus with 26 samples.

Results

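The DRR enhancer RNA was mapped on myotube chromatin by ChIRP-seq, and its summits were set against the chromatin sites of SMC3, part of the cohesin complex. ChIRP pulls down an RNA with biotinylated probes together with the chromatin it touches, and a summit is the single base at which the authors' peak caller placed the top of a peak. The members were the summits of 4 lists on chromosomes 1 to 19 and X, 115118 of the 115970 deposited. Pool 2 of the probes gave 22983 summits in replicate 1 and 20204 in replicate 2, and pool 1 gave 3765 in replicate 1 and 68166 in replicate 2. The SMC3 sites were the 13885 regions that both myotube SMC3 lists called, out of 15056 and 26765 peaks, after peaks overlapping by at least 1 bp had been merged. These 6 lists belong to a series of 26 samples, all from the mouse muscle line C2C12: its myoblasts were grown in 20% fetal bovine serum, and they formed myotubes in 2% horse serum with insulin, transferrin and selenium.

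All cells behind the summits and the SMC3 regions were C2C12 myotubes, with no transfection named in their labels. Each group had n = 2 libraries. Other lists were used beside them: SMC3 in myotubes transfected with siDRR, the siRNA against the RNA, SMC3 in myoblasts, and accessible chromatin by ATAC-seq in control-transfected myotubes, each as regions called in both lists. The ChIRP cells were fixed with glutaraldehyde and the SMC3 cells with formaldehyde. The LacZ probe and input libraries were not analysed here, so sites that probes or chromatin give without the RNA could not be taken off. The lists hold no read counts, so depth is unknown, and a longer list may come from deeper sequencing. The labels name neither separate cultures for replicates, so their spread may be technical, nor any batch. All positions are in mouse build mm9.

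DRR, the distal regulatory region, is an enhancer upstream of Myod1, the gene of a transcription factor that commits cells to muscle. Enhancers of this kind are transcribed into enhancer RNAs, and the DRR RNA is known for acting on Myog, a differentiation gene on another chromosome. Cohesin is a ring of SMC1, SMC3, RAD21 and a STAG subunit that encircles DNA and extrudes loops, halting where CTCF is bound, and it also gathers at active enhancers and promoters. The comparison asks whether the RNA is found where cohesin sits.

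Few summits lay inside a cohesin site, but in all 4 lists more did than on average after the list had been shifted along the genome. In pool 2, 378 summits of replicate 1 (1.64%) and 247 of replicate 2 (1.22%) fell inside an SMC3 region. In pool 1, 49 summits of replicate 1 (1.30%) and 591 of replicate 2 (0.867%) did. For comparison, all summits of a list were moved together along each chromosome by 200 equally spaced circular shifts, which keeps their spacing and breaks their tie to SMC3. The shifted summits lay inside an SMC3 region in 0.787% and 0.783% of cases for replicates 1 and 2 of pool 2, and in 0.808% and 0.769% for those of pool 1. In replicate 1 of pool 1 the observed share equalled the highest of its shifts, 1.30%, and in the other 3 lists it lay above all of them. SMC3 regions covered 0.768% of the span that holds peaks, at a median width of 1216 bp.

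Within 1 kb the excess held in all 4 lists, at 1.08 to 1.89 times the shifted share. Replicate 1 of pool 2 had 805 summits within 1 kb (3.50%, exact 95% interval 3.27% to 3.75%), against 1.85% after shifts, a ratio of 1.89. Replicate 2 of pool 2 had 575 (2.85%, 2.62% to 3.08%), against 1.85%, a ratio of 1.54. Replicate 1 of pool 1 had 120 (3.19%, 2.65% to 3.80%), against 1.93%, a ratio of 1.65. The largest list, replicate 2 of pool 1, stood apart from the others with the smallest ratio: 1341 summits (1.97%, 1.86% to 2.07%), against 1.82%, a ratio of 1.08. Each of the 4 shares was above the highest of its 200 shifts, which reached 2.54% and 2.34% in pool 2 and 2.63% and 1.95% in pool 1. The intervals take summits as independent and cover counting error only. The comparison with shifts is a description and carries no p-value.

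At 10 and 50 kb the same 3 lists kept an excess and replicate 2 of pool 1 did not. Within 10 kb lay 15.6% and 14.2% of the summits of replicates 1 and 2 of pool 2, against 10.3% after shifts for each. In pool 1 the shares were 17.98% for replicate 1, against 10.7% after shifts, and 10.5% for replicate 2, against 10.1%. Within 50 kb lay 47.0% and 43.9% in pool 2, against 34.1% and 34% after shifts. In pool 1 they were 49.5% for replicate 1, against 35.1%, and 33.6% for replicate 2, against 33.4%. For replicate 2 of pool 1 the observed shares at 10 and 50 kb fell inside the range of the shifts, and in the other 3 lists they lay above it. The median summit of pool 2 was 56.4 kb from SMC3 in replicate 1 and 65.2 kb in replicate 2, against 107 kb after shifts for both. In pool 1 the median distance was 51.4 kb in replicate 1, against 101 kb after shifts, and 113 kb in replicate 2, against 112 kb.

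**Figure D1:**
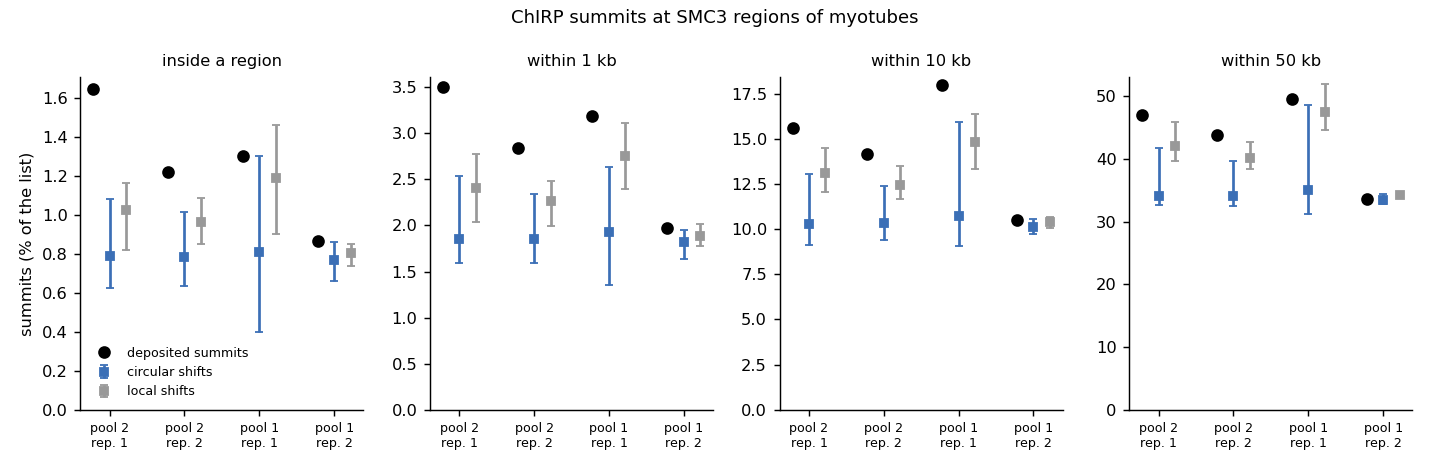
Share of ChIRP summits (% of each list, linear axes from 0) inside, and within 1, 10 and 50 kb of, an SMC3 region of myotubes. Black points are deposited summits, and squares with bars are the mean, lowest and highest value over 200 circular shifts within chromosomes (blue) or 20 local shifts of 100 kb to 1 Mb (grey). Within 1 kb the deposited summits stand above the blue bars in all 4 lists, from 1.97% to 3.50%.

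The ratios were smaller when the summits stayed in their own neighbourhood. When summits were moved by only 100 kb to 1 Mb in either direction, in 20 steps, the ratio within 1 kb was 1.45 and 1.26 for replicates 1 and 2 of pool 2, and 1.16 and 1.04 for those of pool 1. At 50 kb these local ratios were 1.12 and 1.09 in pool 2, and 1.04 and 0.983 in pool 1. In both pool 2 lists the share within 1 kb remained above the highest local shift (2.78% and 2.48%). In pool 1 the 3.19% of replicate 1 was just above its highest local shift of 3.11%, and the 1.97% of replicate 2 was below its highest of 2.01%. Inside the regions themselves, replicate 1 of pool 1 (1.30%) lay within its local range of 0.903% to 1.46%, and the other 3 lists lay above theirs, which ended at 1.16% and 1.09% in pool 2 and at 0.852% in replicate 2 of pool 1 (observed 0.867%).

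A rise of density centred on the cohesin site was clearest in replicate 1 of pool 2. In the 1 kb bins on either side of the region's centre it had 236 and 249 summits, against means of 125 each after circular shifts and 158 and 163 after local shifts. The bins from 2 to 3 kb on either side held 183 and 174 summits, against 124 and 126 after circular shifts. Replicate 2 of pool 2 had 167 and 157 summits in the central bins, against 109 and 110 after circular shifts, and 147 and 156 in the bins from 2 to 3 kb. Its density was thus raised at the centre and to about the same degree around it. Replicate 1 of pool 1 had 32 and 31 summits in the central bins, against 21.1 and 21.7, and 38 and 39 in those from 2 to 3 kb, so the centre was not its highest point. Replicate 2 of pool 1 had 398 and 402, against 367 and 366.

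**Figure D2:**
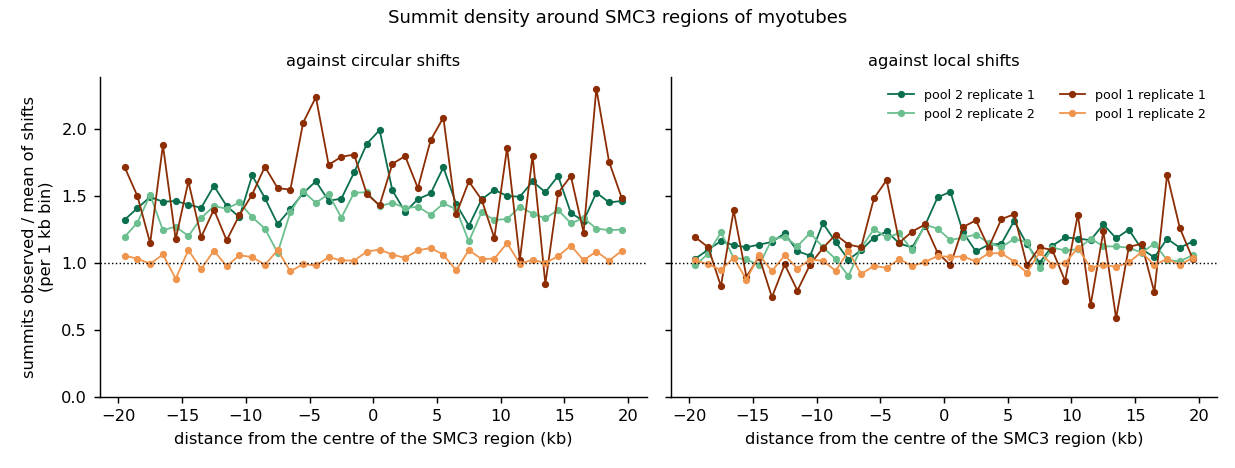
Summits in 1 kb bins up to 20 kb on either side of the centre of each myotube SMC3 region, divided by the mean after circular shifts (left) or local shifts (right); both axes are linear and the dotted line marks 1. The line of pool 2 replicate 1 has its own highest values at the centre, where 236 and 249 summits stood against 125 each after circular shifts. At the centre the line of pool 1 replicate 2 is the lowest on the left, with 398 and 402 summits against 367 and 366.

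With circular shifts the pool means differed by less than the SD between the lists of pool 1, and with local shifts by more, but 2 lists against 2 cannot reach a p of 0.05 in either case. With circular shifts the mean ratio within 1 kb was 1.72 ± 0.25 in pool 2 and 1.37 ± 0.41 in pool 1 (SD, n = 2 each), a log2 difference of 0.35 (p = 0.667, two-sided exact permutation test of the log2 ratios, in which the smallest possible p is 0.333). Without replicate 2 of pool 1 the difference was 0.05, and without replicate 1 of pool 1 it was 0.66. With local shifts the mean ratio was 1.36 ± 0.14 in pool 2 and 1.099 ± 0.081 in pool 1 (SD, n = 2 each), a log2 difference of 0.30, and both pool 2 lists lay above both pool 1 lists (exact permutation p = 0.333, the smallest possible).

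The 2 lists of pool 1 differed in length, and in the longer one the summits found in both had the higher ratio. Of the 68166 summits of replicate 2, 3636 lay within 500 bp of a summit of replicate 1 and had a median rank percentile of 97.0 (100 is the best score in a list). Of these, 115 lay within 1 kb of SMC3 (3.16%, against 1.91% after shifts), a ratio of 1.65. The other 64530 summits had a median percentile of 46.9, and 1226 of them lay within 1 kb (1.90%, against 1.82%), a ratio of 1.05. In numbers, the recurring summits exceeded their shifted mean by 45.4 and the far more numerous others by 53.2. At 10 kb the ratios were 1.68 for the recurring summits and 0.998 for the others. The local ratios within 1 kb were 1.14 and 1.03, so the 2 sets differed less once the neighbourhood was kept.

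In pool 2 recurrence went both ways. The 12604 summits of replicate 1 that recurred in replicate 2 had a ratio of 1.70, and the 10379 that did not had 2.12. The 12571 summits of replicate 2 that recurred in replicate 1 had a ratio of 1.70, and the 7633 that did not had 1.28. Recurrence in the other replicate therefore went with a lower ratio in replicate 1 and a higher ratio in replicate 2.

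A site that only the probes of 1 pool bind by themselves should not recur in the other pool. Background that both pools pick up would recur as well, so recurrence does not mark a site as bound by the RNA. The 903 summits of pool 2 replicate 1 that recurred in pool 1 had a ratio within 1 kb of 2.31, against 1.88 for the 22080 that did not. For pool 2 replicate 2 the ratios were 1.69 for 768 summits and 1.53 for 19436. In pool 1, the 166 summits of replicate 1 found in pool 2 had 2.21, against 1.63 for 3599, from only 7 summits within 1 kb. The 1130 of replicate 2 had 2.07, against 1.06 for 67036. In each list the summits also found by the other pool had the higher ratio within 1 kb, but the lists share these sites and are not 4 separate counts. Within 1 kb lay 39 and 24 recurring summits of pool 2 and 44 of pool 1 replicate 2. With local shifts the ratios of recurring summits were 1.63 and 1.32 in pool 2, against 1.45 and 1.26 for the others. In pool 1 they were 1.52 and 1.53, against 1.14 and 1.03. Inside the regions it was otherwise in replicate 1 of both pools: the ratio was 1.94 for recurring and 2.10 for other summits in pool 2, and 0 of the 166 recurring summits of pool 1 lay inside a region, which allows a share of up to 1.81%.

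**Figure D3:**
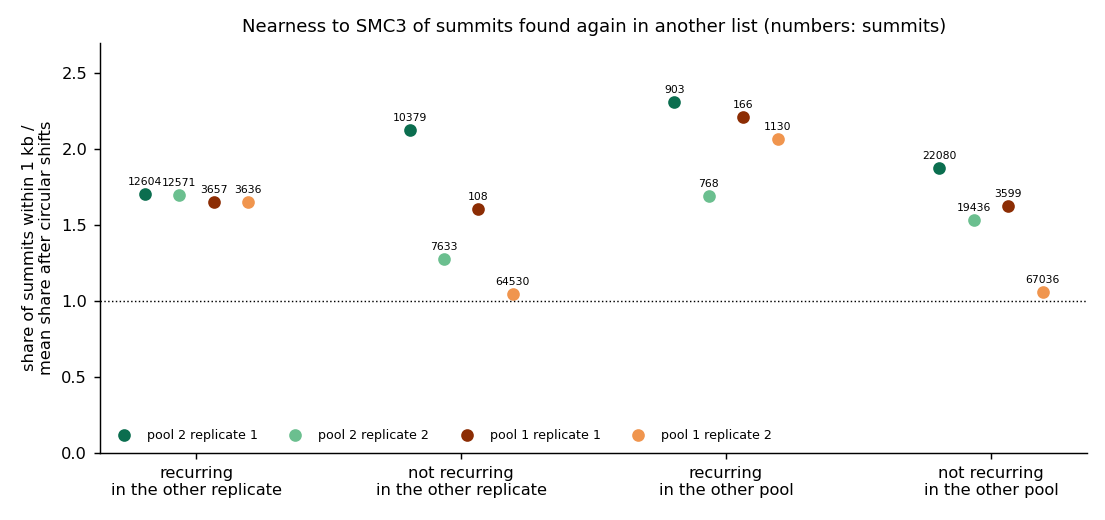
Share of summits within 1 kb of a myotube SMC3 region divided by the mean share after circular shifts (linear axis from 0), for summits that do or do not recur within 500 bp in the other replicate of their pool or in the other pool; numbers give the summits in each set. The 3636 recurring summits of pool 1 replicate 2 stand at 1.65 and the 64530 others at 1.05.

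The best-scoring summits were not uniformly the nearest to cohesin. In replicate 1 of pool 2 the best-scoring 20% had 188 of 4597 summits within 1 kb (4.09%, against 1.83% after shifts), a ratio of 2.23, and the lowest-scoring 20% had 1.77. In replicate 2 of pool 2 the ratios were 1.53 in the best-scoring 20% and 1.64 in the lowest. In replicate 1 of pool 1 they were 1.81 and 1.64, with the least, 1.06, in the next best 20%, where 16 of 783 summits lay within 1 kb. Replicate 2 of pool 1 ran the other way from replicate 1 of pool 2. Its lowest-scoring 20% had 346 of 13235 summits within 1 kb (a ratio of 1.42), its best-scoring 20% had 242 of 13610 (0.983), and the 20% just under the best had 173 of 13663 (0.701). Its better-scoring 50% together had a ratio of 0.855, below 1.

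Among the best 500 summits the ratio was above that of the best-scoring 20% in 3 of 4 lists, from few summits. Within 1 kb lay 26 of the 497 best summits of pool 2 replicate 1 (a ratio of 2.84) and 17 of the 472 best of replicate 2 (1.94), with ties at the limit of 500 left out. In pool 1 they were 15 of 464 in replicate 1 (1.62) and 16 of 495 in replicate 2 (1.70), the first of which was below its best-scoring 20%. With local shifts the ratios were 1.99 and 1.48 in pool 2 and 1.03 and 0.991 in pool 1. Of the best 98 and 100 summits of replicates 1 and 2 of pool 1, 6 and 5 lay within 1 kb and 0 inside a region. A count of 0 allows a share inside of up to 3.06% and 3%. Of the best 99 and 96 summits of pool 2, 4 and 4 lay within 1 kb and 1 and 2 inside. Of the best 500 of pool 1, 5 and 3 lay inside, at 1.24 and 0.727 times the shifted share. In pool 2, 13 and 11 of the best 500 lay inside, at 3.40 and 3.08 times.

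**Figure D4:**
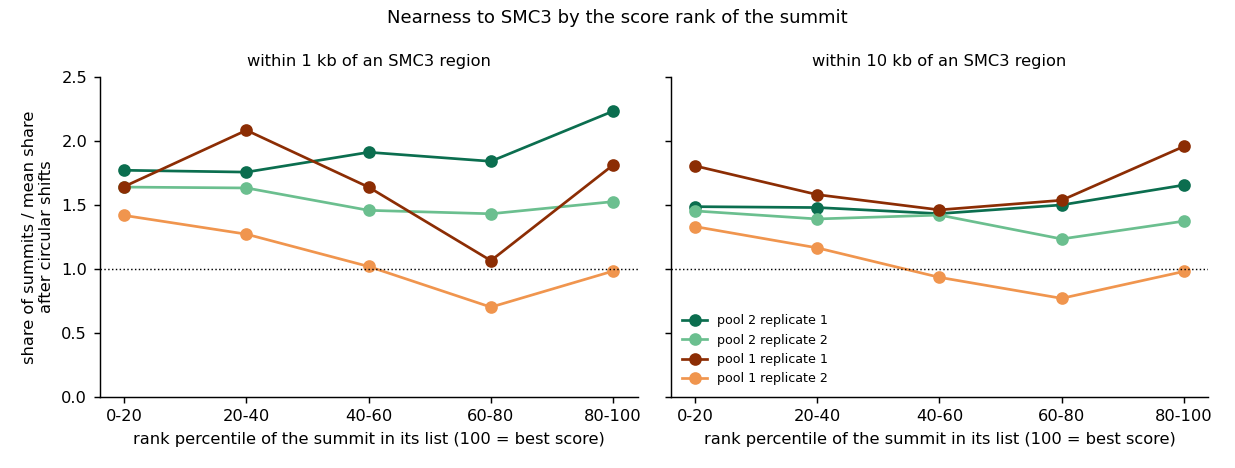
Share of summits within 1 kb (left) or 10 kb (right) of a myotube SMC3 region divided by the mean share after circular shifts (linear axis from 0), by rank percentile of the summit in its own list, with 100 the best score. Pool 1 replicate 2 runs from 1.42 in its lowest-scoring 20% to 0.701 and 0.983 in its 2 best sets within 1 kb, and pool 2 replicate 1 is highest, at 2.23, in its best.

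The highest summit of each list lay outside SMC3 regions, farther than the median summit of its list in pool 2 and nearer in pool 1. In both pool 2 lists it was on chromosome 17, at 4626343 in replicate 1 and at 4626351 in replicate 2, and both stood 151 kb from the nearest SMC3 region (4777774 to 4779010). This site recurred within 500 bp in both pool 1 lists. In both pool 1 lists it was on chromosome 9, at 42827147 and 42827122, 18.2 kb from the SMC3 region at 42807770 to 42808949. It recurred in neither pool 2 list. Among the 3 best of each list the nearest to SMC3 was the third of pool 2 replicate 2, on chromosome 2 at 117605493, at 0.253 kb from a region that starts at 117605746. The second of pool 1 replicate 2, on chromosome 7 at 28935323, followed at 1.22 kb. The farthest was the second of pool 2 replicate 1, on chromosome 11 at 25000162, at 1050.2 kb.

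Against circular shifts, the excess of both pool 2 lists and of replicate 1 of pool 1 was spread over the genome. Within 10 kb, the ratio was above 1 on 20 of 20 chromosomes in both pool 2 lists and in replicate 1 of pool 1, and on 14 of 20 in replicate 2 of pool 1. Medians over chromosomes were 1.501 and 1.36 in pool 2 and 1.71 and 1.03 in pool 1. Chromosome X was the lowest in both pool 2 lists (1.20 and 1.23) and in replicate 2 of pool 1 (0.808), but the highest in replicate 1 of pool 1 (2.84, from 6 of 60 summits). Without chromosome X the ratios within 1 kb were 1.90 and 1.54 in pool 2 and 1.66 and 1.09 in pool 1. With local shifts, the ratio within 10 kb was above 1 on 20 of 20 chromosomes in both pool 2 lists. In pool 1 it was so on 18 of 20 in replicate 1 and on 12 of 20 in replicate 2.

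From the side of cohesin, 993 of the 13885 SMC3 regions held a summit of any list, and 12892 held none. Summits of pool 2 were inside 369 regions (2.66%) in replicate 1 and 245 (1.76%) in replicate 2. Those of pool 1 were inside 49 (0.353%) and 578 (4.16%). Both replicates of pool 2 shared 175 of these regions, which is 71.4% of the regions of replicate 2 and 47.4% of those of replicate 1. In pool 1, 46 of the 49 regions of replicate 1 also held a summit of replicate 2. Summits of both pools were held by 27 regions, summits of 3 lists by 10, and summits of all 4 by 0. Each of the 27 held a summit of pool 1 replicate 2, the longest list. Sharing between pools was about as rare elsewhere. Of pool 2 summits inside SMC3, 3.70% and 4.45% in replicates 1 and 2 lay within 500 bp of a summit of pool 1 replicate 2. Outside SMC3 the shares were 3.81% and 3.74%.

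Regions that held a summit were wider and more often accessible than the others, and about as strongly scored. The median width was 1337 bp for the 993 regions with a summit and 1209 bp for the 12892 without, and a wider region takes in more summits by its size alone. An accessible region of control myotubes overlapped 39.0% of the first set and 24.1% of the second. The mean rank percentile over the 2 SMC3 lists had a median of 63.9 with a summit and 61.1 without. Myoblast SMC3 regions overlapped 91.3% and 94.3%, and both siDRR lists called 51.2% and 51.5%. Neither siDRR list called 6.24% of regions with a summit and 6.46% of those without. By list this share was higher with a summit in both pool 2 lists, lower in replicate 2 of pool 1, and close in replicate 1 of pool 1. These differences were not tested, and replicate 1 of pool 1 had only 49 regions with a summit. For pool 2 the shares were 7.59% with a summit and 6.41% without in replicate 1, and 9.39% and 6.39% in replicate 2. For pool 1 they were 6.12% with a summit and 6.45% without in replicate 1, and 5.02% and 6.51% in replicate 2. The part of width in these shares was not tested.

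Nearness to the RNA differed little between SMC3 sets in the same list. Within 1 kb, the ratio for the 7986 SMC3 regions of siDRR myotubes was 1.82 and 1.45 in pool 2 and 1.62 and 1.11 in pool 1. For the 13885 of myotubes it was 1.89 and 1.54 in pool 2 and 1.65 and 1.08 in pool 1. For the 25241 of myoblasts it was 1.74 and 1.43 in pool 2 and 1.45 and 1.03 in pool 1. In all 4 lists the myotube regions had a higher ratio than the myoblast regions, by less than the spread between the 2 lists of a pool. The sets share sites, since 13067 of the myotube regions overlap a myoblast region.

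The gap was wider for regions that overlapped no region of the other stage. As regions had to be called in both lists of a stage, such a site may hold a peak in 1 list of the other. The 818 myotube SMC3 regions that overlapped no myoblast region had ratios of 2.44 and 2.29 in pool 2 and 1.89 and 1.11 in pool 1. The 13067 that overlapped one had 1.86 and 1.49 in pool 2 and 1.64 and 1.08 in pool 1. The 12198 myoblast regions with no myotube region had 1.68 and 1.39 in pool 2 and 1.27 and 0.985 in pool 1. The order was the same in the 4 lists, though the differences themselves were not tested, and the counts behind the 818 regions were 66 and 54 summits in pool 2 and 9 and 90 in pool 1. For the 818 the share within 1 kb lay above the highest circular shift in both pool 2 lists (0.287% and 0.267%, against at most 0.226% and 0.188%), and inside the range of shifts in both pool 1 lists.

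Regions that neither siDRR list called had higher ratios than those both lists called in 3 of 4 lists. The 895 such regions had ratios of 2.09 and 1.74 in pool 2, from 54 and 40 summits, and of 1.99 and 1.04 in pool 1, from 9 and 81. The 7144 regions that both siDRR lists called had 1.79 and 1.42 in pool 2 and 1.54 and 1.11 in pool 1. Replicate 2 of pool 1 went the other way. For the 895 the share within 1 kb was above the highest circular shift in pool 2 (0.235% and 0.198%, against 0.165% and 0.183%). In pool 1 it was inside the range of shifts (0.239% and 0.119%, against at most 0.372% and 0.148%). The 895 regions had a median width of 1058 bp, against 1261 bp for the 7144. The siDRR myotubes were transfected, and the labels of the other myotubes name no transfection. Effects of the siRNA, of transfection and of weak calls therefore cannot be told apart. The differences were not tested.

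Within 1 kb, accessible chromatin gave ratios close to those of cohesin sites, above them in pool 2 and below them in pool 1. The 38788 accessible regions of control myotubes had ratios within 1 kb of 2.07 and 1.60 in pool 2 and 1.54 and 1.06 in pool 1. Inside regions, pool 1 was not below: the ratios were 1.61 and 1.21 for accessible regions, against 1.61 and 1.13 for SMC3. In pool 2 they were 2.43 and 1.69, against 2.09 and 1.56. Of summits inside SMC3, 26.2% and 23.1% in pool 2 and 26.5% and 23.2% in pool 1 were inside an accessible region, against 4.04% and 2.81% in pool 2 and 2.66% and 1.93% in pool 1 for summits outside SMC3. Of the 13885 SMC3 regions themselves, 3495 overlapped an accessible region, whether or not they held a summit. At least part of the contrast between summits inside and outside SMC3 follows from this overlap. The accessible share of shifted summits inside SMC3 was not computed, so the contrast is not a trait of the summits.

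Within 1 kb, cohesin sites in accessible chromatin had the higher ratio in 3 of 4 lists. For the 3495 SMC3 regions that overlapped an accessible region the ratios were 2.36 and 1.79 in pool 2 and 1.46 and 1.14 in pool 1. For the 10390 that did not they were 1.70 and 1.44 in pool 2 and 1.72 and 1.05 in pool 1. Both pool 2 lists had the higher ratio at accessible SMC3 sites, also after local shifts (1.79 and 1.45, against 1.31 and 1.18). In pool 1 the lists went opposite ways, with local ratios of 0.963 and 1.09 at accessible sites, against 1.23 and 1.02 at the others. The 0.963, in replicate 1, rests on 31 summits. Inside the regions, accessible sites had the higher ratio in all 4 lists. In pool 2 the ratios inside were 2.69 and 1.82, against 1.76 and 1.42 at the others. In pool 1 they were 1.83 and 1.21, against 1.50 and 1.08, with 19 and 30 summits behind the values of replicate 1. Accessible regions without SMC3 had ratios of 2.04 and 1.59 in pool 2, and those with it 2.35 and 1.78.

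**Figure D5:**
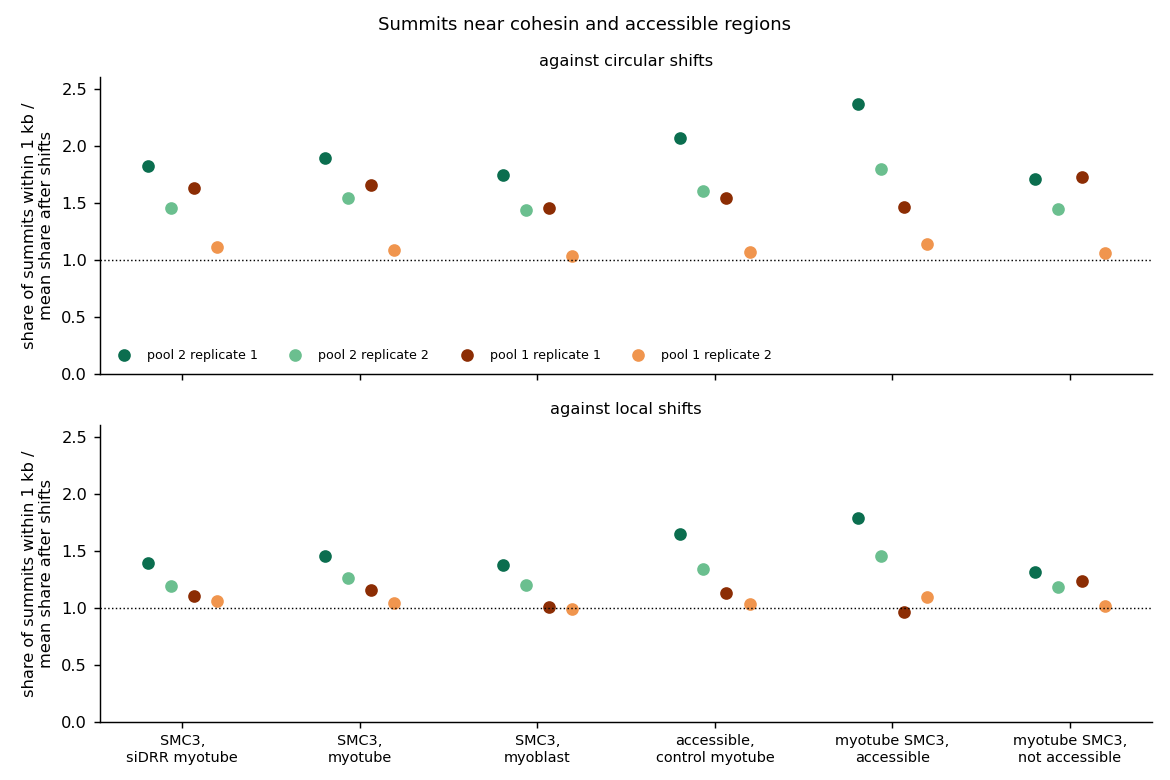
Share of summits within 1 kb of each set of regions divided by the mean share after circular shifts (top) or local shifts (bottom), on linear axes from 0, with 1 point per ChIRP list. Pool 2 is highest at myotube SMC3 regions that overlap accessible chromatin, at 2.36 and 1.79 in the upper panel, and pool 1 replicate 2 stays between 1.03 and 1.14 there in all 6 sets.

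No order by the score of the cohesin site held across distances and shifts. In pool 2, the best-scoring 20% of SMC3 regions had ratios within 1 kb of 1.98 and 1.64, and the lowest-scoring 20% had 1.92 and 1.53. In pool 1 the best had 1.85 and 1.20, and the lowest 1.67 and 1.07. With local shifts pool 2 replicate 1 turned, at 1.46 in the best and 1.504 in the lowest. Inside the regions the best had the lower ratio in 3 of 4 lists: 2.11 and 1.55 in pool 2, against 2.35 and 1.95 in the lowest, and 1.46 in pool 1 replicate 1, against 2.37. In pool 1 replicate 2 the best had 1.31 and the lowest 1.16. Summits inside SMC3 had a median rank percentile in their own list of 51.2 and 43.1 in pool 2 and of 32.4 and 37.9 in pool 1, against 51.2 and 51.0 in pool 2 and 51.6 and 50.1 in pool 1 for summits outside. In 3 of the 4 lists the summits inside cohesin sites were thus lower in score than the others.

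The 27 SMC3 regions that both pools touched were more often accessible than the other 13858: 16 overlapped an accessible region (59.3%, against 25.1%). They were also wider, at a median of 1921 bp against 1215 bp, and the part of width was not tested. Of the 27, 24 overlapped a myoblast SMC3 region (88.9%, against 94.1%) and 13 were called in both siDRR lists (48.1%, against 51.5%). Neither siDRR list called 4 of the 27 (14.8%, against 6.43%). In all 27 the best pool 1 summit was from replicate 2, the longest list, whose ratio within 1 kb was 1.08. Only the fourth, on chromosome 8, also held a summit of pool 1 replicate 1. How many regions list length and width alone would let both pools share was not computed. In 15 of the 27 the best summits of the pools lay within 500 bp of each other. The first by mean rank percentile of the summits was on chromosome 1 (35783169 to 35784155, 987 bp), with summits at 35783331 in pool 2 replicate 2, at percentile 98.1, and at 35783488 in pool 1 replicate 2, at percentile 91.0. Replicate 1 of pool 2 had a summit in it as well. It was a weak SMC3 site, at percentiles of 25.3 and 9.39 in the myotube lists, overlapped a myoblast SMC3 region and no accessible region, and neither siDRR list called it.

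The second, also on chromosome 1 (136185772 to 136191545), was the broadest but 1 of the first 10 at 5774 bp. Its best summits lay 165 bp apart, at percentiles of 98.8 in pool 2 and 70.5 in pool 1. It was accessible, overlapped no myoblast SMC3 region and was called in neither siDRR list. The third, on chromosome 4 (40851637 to 40854197), was the strongest SMC3 site of the first 10, at percentiles of 86.2 and 94.3, and was called in both siDRR lists. Its summits lay 834 bp apart, at percentiles of 98.3 in pool 2 and 55.5 in pool 1.

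The fifth, on chromosome 14 (35175817 to 35177723), had its best summits 55 bp apart, at percentiles of 75.6 in pool 2 and 63.1 in pool 1, and was accessible. The ninth, on chromosome 10 (13683733 to 13689689), was the broadest of the first 10, at 5957 bp, with summits 170 bp apart. Over the first 10, 7 regions were accessible, 8 overlapped a myoblast SMC3 region and 4 were called in both siDRR lists. Among SMC3 regions without summits of both pools these shares were 25.1%, 94.1% and 51.5%. In 6 of the first 10 the best summits of the pools lay within 500 bp. The mean percentile of the summits was 51.8 at the tenth. Genes at these regions are not named here.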

How the data were processed

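Each list held 5 columns without a header. The submitters' processing notes give mm9 as the build and list, with no roles, MACS2 and MACS 1.4.2, Bowtie2 2.2.4 and Bowtie 1.1.1, cutadapt 1.12, and bcl2fastq 2.17.1 and CASAVA 1.8.2. Nothing used here gives the control, filters or threshold of the calls. Each deposited score came from the authors' peak caller on an unstated scale and served only for ranks within a list. Each library had its own list. Gene names and sequences are left out because no mm9 annotation was used here.

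Distances ran from the summit base to the nearest base of a region, with 0 inside. Circular shifts wrapped each chromosome over the span from its first to its last deposited peak, by equal steps. A ratio is the observed share over the mean shifted share. Scores with ties got their average rank. Tools were Python 3.11.15, numpy 2.4.6, scipy 1.17.1 and matplotlib 3.10.9. Distances and ratios were tested on simulated summits. Named regions were the first 10 of those with summits of both pools, by the mean of the best rank percentile per pool, and the 3 best summits of each list. Members and lists were chosen with earlier results of these data known. The splits of SMC3 regions and the sets of recurring summits were chosen after seeing the data.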

Additional observations from a re-analysis of the deposited data

Results flagged for a closer look

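ChIRP summits outside chromosomes 1 to 19 and X entered no comparison. Pool 2 had 104 of them in replicate 1 (0.450% of the list) and 91 in replicate 2 (0.448%). Pool 1 had 11 in replicate 1 (0.291%) and 646 in replicate 2 (0.939%). They are given because no comparison used them.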

How the results depend on the processing

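Over 11 alternatives the ratio within 1 kb stayed above 1 in 3 lists, at 1.45 to 2.01 and 1.26 to 1.58 for replicates 1 and 2 of pool 2 and 1.16 to 1.72 for replicate 1 of pool 1. In replicate 2 of pool 1 it did so in 10 of 11 (0.855 to 1.11). It turned to 0.855 there with the better-scoring 50% of summits, as did the ratio inside regions, to 0.863, and that of replicate 1 of pool 1 inside regions was 0.830; the cause was not tested. Local shifts moved the ratio to 1.45 and 1.26 in pool 2 and 1.16 in replicate 1 of pool 1, since they keep the neighbourhood. With 1 SMC3 list left out, the ratios were 1.89 to 1.99 and 1.55 to 1.56 in pool 2, and 1.64 to 1.65 and 1.06 to 1.07 in pool 1. The log2 difference of the pools ran from 0.05 to 0.66 with 1 ChIRP list left out. With only the best 100 summits the ratio was 2.14 in pool 2 replicate 2, and 2.99 and 2.45 in pool 1; with the best 500 it was 2.84 in pool 2 replicate 1 and 1.70 in pool 1 replicate 2, and with the best 1000 it was 3.14 in pool 2 replicate 1. These rest on 4 to 58 summits within 1 kb. A denser grid of 1000 shifts was added after seeing the data. With the replicate number as a block, also added later, the pool differences were 0.20 and 0.51 for replicates 1 and 2, with a mean of 0.35 (exact sign-flip permutation p = 0.5, the smallest that 2 pairs allow); the labels do not say that a number marks a shared culture or day. With local shifts, added later too, the pool difference was 0.30. Without read counts, list length and depth cannot be told apart.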
